A study of Mus musculus with 24 samples.

Results

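Immediate early genes (IEGs) were followed in the hippocampus of individual mice that kept or had lost the transcriptional coactivator CBP and lived in plain or enriched cages. The 10 genes, out of 55471 in the count table, were Fos, Fosb, Junb, Egr1, Egr2, Egr4, Arc, Npas4, Nr4a1 and Ier2. They were selected by name, as genes that neuronal activity induces, and matched by Ensembl identifier. All 10 had enough reads to be among the 18251 genes tested in the 12 mice. Tissue came from 3 female C57BL/6 mice (C57BL/6J in the methods of the paper) in each of 4 groups, aged 3 to 6 months. CBP-ifKOs carried Crebbp_flox alleles and the Camk2a_creERT2 driver, which removes CBP from excitatory forebrain neurons after tamoxifen. Controls were littermates without the driver, and both genotypes received 5 administrations of tamoxifen. Each genotype was kept either in a standard cage (SC) or under environmental enrichment (EE), a large box with running wheels, tubing and toys that was rearranged regularly. The tissue was whole hippocampus, so glia, interneurons and vessels contributed RNA from cells in which the driver is not active. In such bulk tissue, more cells with a transcript and more transcript per cell cannot be told apart. The time of day and the handling before dissection were not given in the sources used here.

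IEGs are switched on within minutes of synaptic activity, without new protein synthesis. Calcium and MAP kinase signals phosphorylate factors already bound at their promoters, among them CREB at cAMP response elements (CREs) and SRF at CArG boxes, and CREB then recruits CBP. Their RNAs are short lived, so the level in a dissected hippocampus reflects recent experience of that animal. Most IEGs encode transcription factors that drive a slower wave of late response genes, such as Bdnf. Arc is an exception, since its protein acts at synapses.

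Promoter windows of 7 of the 10 genes held short parts of a CRE, and 3 windows are shown to place those sequences. RefSeq promoter windows of GRCm38.p6 were matched for 7 of the 10 genes, Fos, Fosb, Junb, Egr2, Egr4, Npas4 and Nr4a1. In the 250 bases before the start site, the CRE half-site, TGACG or on the other strand CGTCA, was found in 9 of the 11 windows of these genes, at least 1 window for each gene, and 2 windows of Egr2 held none. The Egr2 windows that held it overlap and contain the same half-sites, so the 9 windows are not all separate. The share among all 32817 distinct windows of this length was 17.7%. The full palindrome TGACGTCA, which contains both half-sites, was found in none of these 7 and in 1.55% of all windows. The AP-1 site, TGACTCA or TGAGTCA, was in none of the 7 and in 4.46% of all windows. A CArG box was found in 4 of the 11 windows, which overlap in part and all belong to Egr2, and in 1.47% of all windows. An Egr2 window at chr10:67537619-67537868 held 2 half-sites and no exon base of the GENCODE M21 annotation and is not shown. The 3 windows below also hold at least 2 half-sites and no such exon base. They are Fos at chr12:85473640-85473889 on the plus strand, Egr4 at chr6:85513590-85513839 on the minus strand and Nr4a1 at chr15:101266596-101266845 on the plus strand. The Nr4a1 window lies before an internal start site of the gene, whose longest annotated form begins at position 101254269. Capitals mark half-sites, and each sequence reads 5′ to 3′ towards the start site.
Fos: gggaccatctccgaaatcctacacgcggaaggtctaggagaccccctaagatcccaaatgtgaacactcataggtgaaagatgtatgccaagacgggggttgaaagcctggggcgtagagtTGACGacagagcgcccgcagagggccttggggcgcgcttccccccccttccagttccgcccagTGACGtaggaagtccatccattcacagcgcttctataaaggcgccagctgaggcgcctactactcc
Egr4: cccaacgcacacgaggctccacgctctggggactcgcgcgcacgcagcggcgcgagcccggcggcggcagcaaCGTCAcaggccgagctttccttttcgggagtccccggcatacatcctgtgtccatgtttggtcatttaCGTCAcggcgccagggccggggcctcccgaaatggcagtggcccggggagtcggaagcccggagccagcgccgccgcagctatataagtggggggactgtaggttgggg
Nr4a1: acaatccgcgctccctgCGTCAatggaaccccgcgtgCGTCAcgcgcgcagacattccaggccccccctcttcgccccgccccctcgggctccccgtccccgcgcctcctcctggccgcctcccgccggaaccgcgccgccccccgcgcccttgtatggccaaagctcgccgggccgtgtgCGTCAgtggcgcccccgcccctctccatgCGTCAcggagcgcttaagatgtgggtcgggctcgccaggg

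The half-site nearest to the start began 66 bases before it in Fos, 109 in Egr4 and 40 in Nr4a1. These matches describe letters in the window and were not tested as binding sites.

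Compared per length, as CPM (counts scaled to library size by TMM) per kilobase of exons, the IEGs covered a wide range. Averages over the 12 mice were 48.1 ± 18.4 CPM per kb (SD, n = 12) for Arc and 31.5 ± 9.75 for Egr1, a zinc finger factor. Nr4a1, an orphan nuclear receptor, averaged 20.3 ± 6.86 CPM per kb and Junb, an AP-1 partner of Fos, 18.3 ± 5.66. Fos followed with 8.73 ± 5.52 CPM per kb, Egr4 with 7.13 ± 2.55 and Npas4, a neuron-specific factor, with 4.79 ± 1.62. The lowest levels were those of Ier2, a small nuclear protein, with 3.93 ± 1.39 CPM per kb, Fosb with 1.31 ± 0.474 and Egr2 with 1.24 ± 1.01. Arc was above Egr1 in 12 of 12 mice and Egr1 above Nr4a1 in 12 of 12. Neighbours whose order varied between mice were Nr4a1 and Junb (9 of 12 mice in this order), Fos and Egr4 (8 of 12), Npas4 and Ier2 (7 of 12) and Fosb and Egr2 (8 of 12). Junb shares 173 exonic bases (7.52% of its exons) with Prdx2 on the opposite strand, and whether counting used the strand was not given in the sources used here. None of the other 9 genes shared exonic bases with another gene of the annotation.

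Crebbp, which encodes CBP, separated the genotypes in every mouse. It lay between 69.6 and 81.9 CPM in the 6 controls and between 44.5 and 51.6 CPM in the 6 CBP-ifKOs. The log2 change was -0.58 ± 0.06 (SE, edgeR, adjusted p = 0.000542) in SC and -0.64 ± 0.06 (edgeR, adjusted p = 0.000407) in EE. Across the 10 IEGs, its mean correlation between mice within groups was 0.012. Library totals were 26874015 to 37448388 counts. All nonzero counts of the CBP-ifKO libraries were even, so the tests were repeated with these counts halved. Choroid plexus markers were high in EE control mouse 1, with Ttr at 1129 CPM against 4.06 to 32.3 CPM in the other 11 mice.

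Fos showed how far mice of one group could lie apart. In SC controls it was at 4.83, 11.8 and 47.3 CPM in mice 1, 2 and 3. The SC-housed CBP-ifKOs were at 23.7, 24.2 and 26.5 CPM. EE controls were at 7.31, 26.7 and 11.7 CPM. The EE-housed CBP-ifKOs were at 5.22, 21.4 and 35.6 CPM. The lowest and the highest mouse of the whole study were thus both SC controls, and all SC-housed CBP-ifKOs fell between them. The ratio of highest to lowest mouse was 9.81 within SC controls, 6.82 within EE-housed CBP-ifKOs, 3.65 within EE controls and 1.12 within SC-housed CBP-ifKOs. These values rest on 130 to 1304 raw counts. In SC controls the coefficient of variation was 107%, against 4.15% from counting alone. In SC-housed CBP-ifKOs it was 6.19%, against 3.47% from counting the deposited, all even counts.

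Egr2, a zinc finger factor related to Egr1, had the widest range of the 10 genes. SC controls were at 0.705, 1.55 and 12.1 CPM in mice 1, 2 and 3. SC-housed CBP-ifKOs had 6.04, 5.40 and 3.92 CPM. EE controls had 1.03, 5.56 and 2.20 CPM. The order of the mice resembled that of Fos, with SC control 3 on top and SC control 1 at the bottom. Egr2 in EE-housed CBP-ifKOs was at 0.878, 3.26 and 8.17 CPM. Highest and lowest SC control differed 17.1-fold, on 332 and 19 reads.

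Arc, the synaptic effector, was again highest among SC controls in mouse 3. SC controls had 86.6, 94.3 and 229 CPM. Values in SC-housed CBP-ifKOs were 180, 192 and 132 CPM. In EE controls they were 84.5, 168 and 134 CPM. EE-housed CBP-ifKOs reached from the lowest to the highest value of all 12 mice, with 68.2, 162 and 234 CPM.

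Npas4 departed from the others in part, and Ier2 is given beside it. Npas4 was at 8.17, 20.0 and 30.6 CPM in SC controls and at 18.1, 22.2 and 26.3 CPM in SC-housed CBP-ifKOs. It was at 17.5, 26.8 and 22.2 CPM in EE controls and at 8.84, 16.9 and 20.3 CPM in EE-housed CBP-ifKOs. SC control 2, low for most IEGs, was above its group mean for Npas4 only. Ier2 was at 3.38, 3.40 and 8.02 CPM in SC controls and at 7.95, 6.78 and 7.31 CPM in SC-housed CBP-ifKOs. In EE it was at 3.86, 6.56 and 4.24 CPM in controls and at 3.62, 7.58 and 9.11 CPM in CBP-ifKOs. For Npas4 the ranges of all groups overlapped. For Ier2, and likewise for Egr1 (143 to 186 against 91.5 to 140 CPM), the SC-housed CBP-ifKOs all lay above the EE controls. This pair of groups differs in both genotype and housing, and the groups compared in the tests overlapped.

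The other 5 genes are given by their ranges. Fosb, a partner of Fos in AP-1, lay between 4.75 and 14.9 CPM, and its 3 values in SC-housed CBP-ifKOs were 8.19, 8.38 and 8.37 CPM. Their coefficient of variation of 1.27% was below the 6.01% that counting alone gives for the deposited, all even counts. Junb spanned 21.3 to 68.0 CPM, Egr4 8.16 to 25.8 CPM, Nr4a1 41.4 to 120 CPM and Egr1 85.3 to 214 CPM. SC control mouse 3 was the highest of the 12 mice for 7 of the 10 genes, and EE-housed CBP-ifKO mouse 3 for the other 3 genes, Arc, Egr1 and Ier2.

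**Figure D1:**
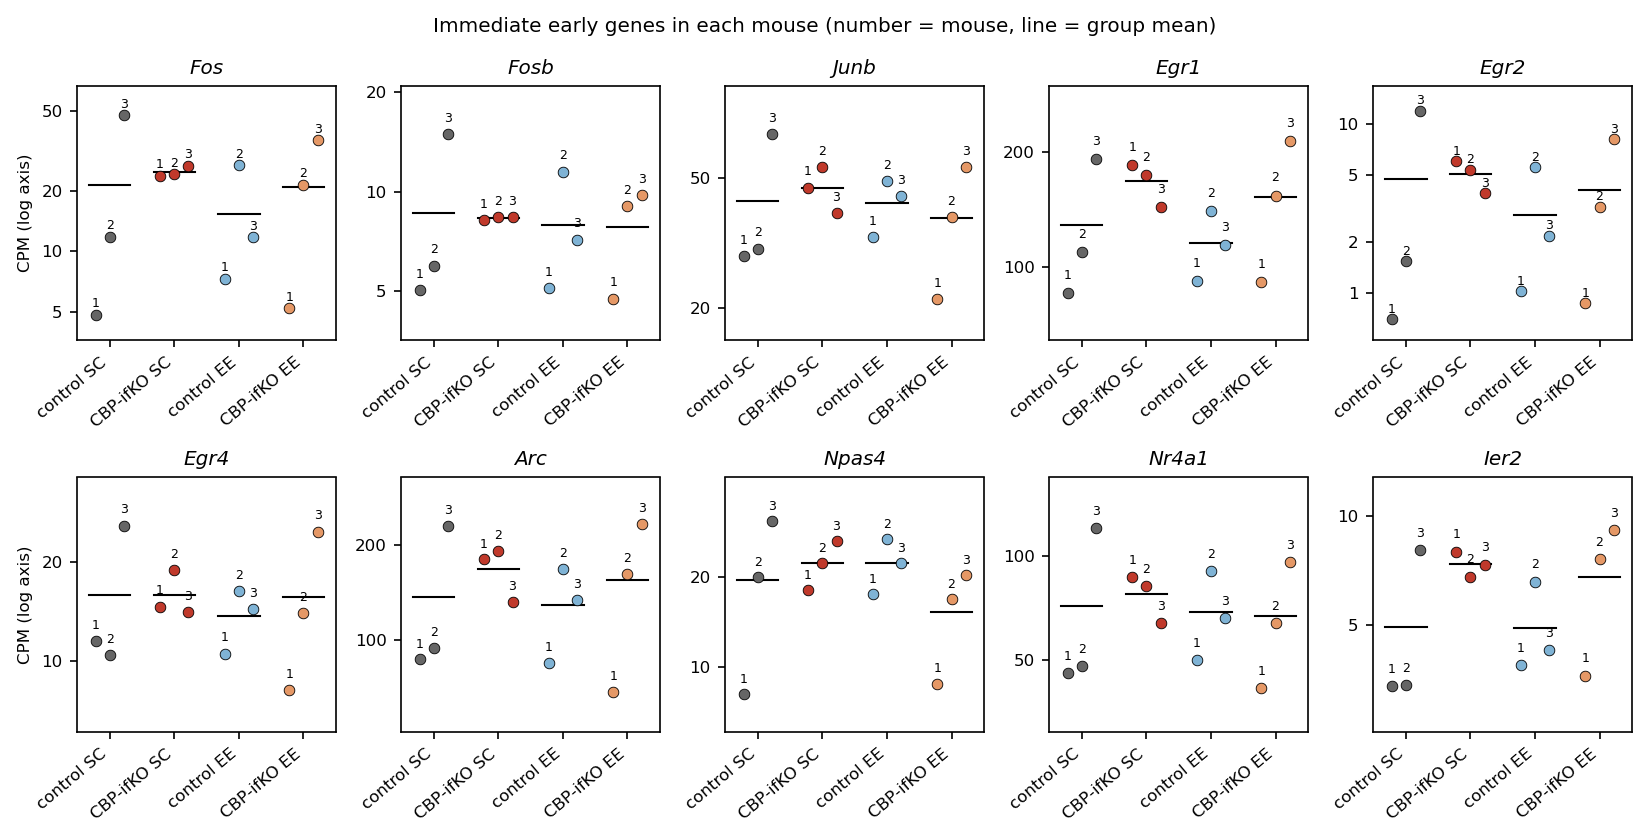
Level of each IEG in each mouse, in CPM on a log axis, by group; points are mice numbered 1 to 3 and lines are arithmetic group means. In 10 of 10 panels SC control mouse 3 lies above the other SC controls, and the SC-housed CBP-ifKOs lie close together.

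The same mice were high or low for nearly all IEGs. Averaged over the 10 genes, SC control 3 was 0.94 above the 12-mouse mean on the log2 scale, EE-housed CBP-ifKO 3 was 0.68 above it and EE control 2 was 0.41 above it. The mice at the other end were EE-housed CBP-ifKO 1 at -0.97, SC control 1 at -0.89 and EE control 1 at -0.63. High and low mice were therefore present in both genotypes and both housings. SC-housed CBP-ifKOs took neither extreme, with averages of 0.35, 0.40 and 0.19. SC control 3, EE control 2 and EE-housed CBP-ifKO 3 were each the highest of their group for 10 of 10 genes. EE control 1 and EE-housed CBP-ifKO 1 were the lowest of their group for 10 of 10, and SC control 1 for 9 of 10.

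**Figure D2:**
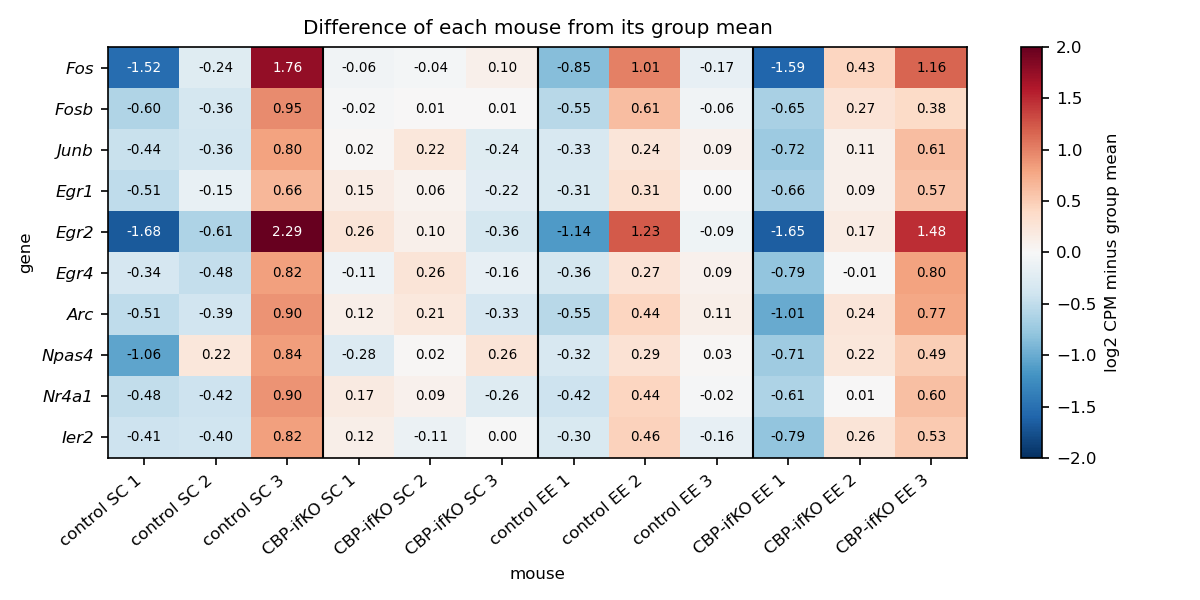
Log2 CPM of each IEG in each mouse minus the mean of its group, by gene in rows and mouse in columns; red is above and blue below the group mean. Columns are of one colour in SC control 1 and 3, EE control 1 and 2 and EE-housed CBP-ifKO 1 and 3, whereas SC-housed CBP-ifKO columns are pale.

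Covariation was measured after removing group means, over the 12 mice. All 45 pairs of IEGs had a Pearson r between 0.742 and 0.987, with a median of 0.942. Spearman's rho had a median of 0.930 and a range from 0.699 to 0.986. Over all 166540375 pairs of tested genes the median r was 0.00, and 3.14% of these pairs exceeded 0.7, as 45 of the 45 IEG pairs did. All values come from the same 12 libraries, so pairs are not independent of each other, and the correlations are given as a description. Leaving out the 2 mice farthest from the median of the first gene of a pair gave r from 0.563 to 0.981, with a median of 0.887.

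Junb and Arc were the closest pair (r = 0.987). Egr4 and Junb followed with r = 0.982, then Egr2 with Nr4a1 and with Egr1, both at r = 0.981. Npas4 was the loosest member, with a median r of 0.793 to the others, from 0.742 with Egr4 to 0.931 with Fos. The remaining 9 genes had medians between 0.921 and 0.958. Within the 6 control mice the median r of the 45 pairs was 0.965, and within the 6 CBP-ifKOs it was 0.934. Whether these medians differ was not tested. Of the summed squared deviations of the 10 genes, 48.4% came from SC controls, 34.7% from EE-housed CBP-ifKOs, 14.9% from EE controls and 1.99% from SC-housed CBP-ifKOs. The covariation therefore rests on 3 of the groups. One component held 93.0% of the variance of the 10 genes after each was scaled to the same variance.

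**Figure D3:**
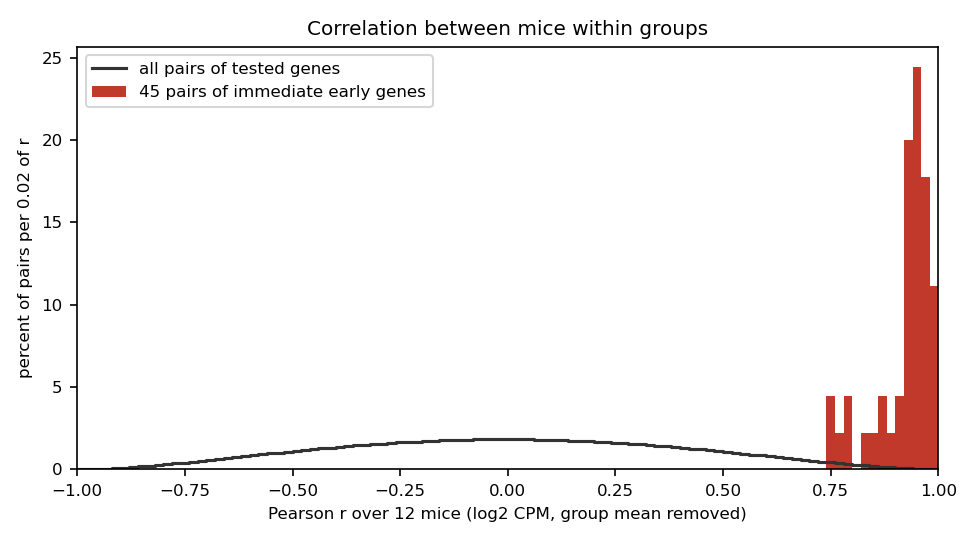
Distribution of Pearson r between genes over 12 mice, on log2 CPM with group means removed, as percent of pairs per 0.02 of r; red bars are the 45 IEG pairs and the line is all pairs of tested genes. IEG pairs start at 0.742, whereas the line is centred on 0.

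The spread between mice was far wider for IEGs than for most genes of the same abundance. The biological coefficient of variation (BCV), edgeR's estimate of the variation between mice of a group beyond counting error, was 0.679 for Egr2 and 0.552 for Fos. It was 0.325 for Arc and between 0.236 and 0.300 for the other 7 genes. The trended value at the same abundance was 0.149 for Egr2, 0.0826 for Fos and 0.0661 for Arc. The ratio to the trend was 6.68 for Fos, higher than in 99.98% of tested genes, and 4.93 for Arc, higher than in 99.93%. At the lower end, Ier2 had a ratio of 2.11, higher than in 98.9% of tested genes. As log2 CPM, the pooled SD within groups had a median of 0.576 over the 10 genes and of 0.134 over all genes.

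Spread differed between groups in size. The median SD of the 10 genes on the log2 scale was 0.781 in SC controls, 0.684 in EE-housed CBP-ifKOs, 0.416 in EE controls and 0.231 in SC-housed CBP-ifKOs. SC-housed CBP-ifKOs had the smallest SD of the 4 groups for 10 of 10 genes. The SD over all tested genes had medians from 0.103 to 0.131 in the 4 groups. Each group SD rests on the same 3 mice for all genes, so the 10 genes do not replicate each other, and the difference in spread was not tested.

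**Figure D4:**
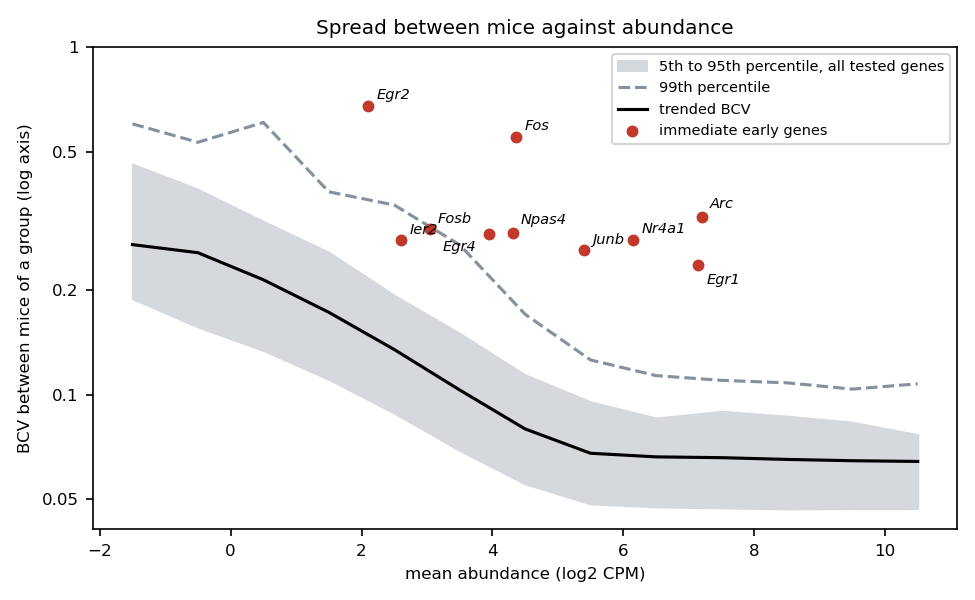
BCV of each IEG (red points) against mean log2 CPM, with the trended value (line) and the percentiles of all tested genes in bins of 1 log2 unit. Fos, with a BCV of 0.552, and 8 other IEGs lie above the 99th percentile of their bin, while Ier2 at 0.279 lies below it (0.351).

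The comparison of genotypes in SC asks whether loss of CBP changes IEG levels at rest. None of the 10 IEGs passed the test (edgeR quasi-likelihood, adjusted p from 0.259 to 0.988), whereas 5.52% of the 17532 genes tested did. At an unadjusted p under 0.05 the number was also 0, against 20.5% of tested genes. DESeq2 called 0 of the 10 IEGs and 1300 of 17531 genes. In the plain levels, 0 of 10 IEGs had genotypes that did not overlap, a pattern met by 25.4% of tested genes. Median log2 change of the 10 was 0.16, from -0.06 for Fosb to 0.57 for Ier2, against 0.00 for all genes. Intervals were wide. For Fos the log2 change of 0.21 ± 0.52 (SE) had a 95% interval from -0.93 to 1.36, and for Egr1 the change of 0.38 ± 0.22 had one from -0.10 to 0.86. Ier2 had the smallest p, with 0.57 ± 0.27 (95% interval from -0.02 to 1.16, edgeR adjusted p = 0.259).

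This result depended on single mice, and most on SC control 3. Without SC control 3, 7 of the 10 genes were higher in SC-housed CBP-ifKOs (edgeR, adjusted p from 0.00254 to 0.0105), and all 10 had an unadjusted p of at most 0.0239. The changes without this mouse were 2.18 for Egr2, 1.59 for Fos, 1.12 for Ier2, 0.90 for Arc, 0.79 for Egr1, 0.73 for Nr4a1 and 0.65 for Junb on the log2 scale. Fosb (0.60, adjusted p = 0.0539), Egr4 (0.53, adjusted p = 0.0671) and Npas4 (0.67, adjusted p = 0.229) did not pass in edgeR. That fit compares 2 controls with 3 CBP-ifKOs and called 435 of 17974 genes. The share of all genes at an unadjusted p under 0.05 was not counted in it. SC control 3 was the highest SC control for 10 of 10 genes, so omitting it lowers the control mean of each gene. The 10 genes also covary over the same mice, so the 7 calls do not replicate each other. Leaving out another SC mouse called 0 IEGs in each of the other 5 fits. Two-sided movement was seen, since the median log2 change was -0.15 without SC control 1 and -0.07 without SC control 2. With all SC mice it was 0.16, and without SC control 3 it was 0.76. The library of SC control 3 had a total of 27833707 counts, a mitochondrial share of 4.99% and a share of the top 10 genes of 5.73%, each within the range of the other controls. Its TMM factor of 0.991 was above those of the other 5 controls (0.965 to 0.980). The part of this in the result was not tested.

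In EE the genotypes were compared in the same way. None of the 10 IEGs passed (edgeR, adjusted p from 0.258 to 0.994), against 4.57% of the 17625 genes tested. At an unadjusted p under 0.05 there were 0 IEGs, against 19.6% of tested genes, and DESeq2 called 0 IEGs and 1296 of 17615 genes. Genotypes did not overlap in 0 of 10 IEGs, against 24.8% of tested genes. Npas4 was nearest to the threshold and was lower in CBP-ifKOs by a log2 change of -0.53 ± 0.24 (95% interval from -1.06 to 0.00, edgeR unadjusted p = 0.0511, adjusted p = 0.258). Egr1 and Ier2 were estimated higher, at 0.42 ± 0.24 and 0.48 ± 0.30. The median log2 change was 0.23. It ranged from 0.56 without CBP-ifKO 1, the low mouse, to -0.25 without CBP-ifKO 3, the high mouse, and both fits called 0 IEGs. Without CBP-ifKO 1, 5 of 10 IEGs had an unadjusted p under 0.05, and the lowest adjusted p was 0.0564 for Egr1 (edgeR). That fit called 431 of 17885 genes, and its share of all genes at the unadjusted threshold was not counted.

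Enrichment was compared with SC within each genotype. In controls none of the 10 IEGs passed (edgeR, adjusted p of 0.999 for each), and 0% of 18251 genes did, whereas DESeq2 called 15 genes and 0 IEGs. The median log2 change from SC to EE was -0.11, with Egr2 at -0.72 ± 0.83 and Fos at -0.49 ± 0.67. Without SC control 3 the median turned to 0.53, and without SC control 1 it was -0.36, both with 0 calls. In CBP-ifKOs none of the 10 IEGs passed (edgeR, adjusted p from 0.684 to 0.990), against 0.011% of tested genes. All 10 estimates were below 0, with a median of -0.17 and the lowest for Npas4 at -0.54 ± 0.34 (95% interval from -1.26 to 0.18). Without EE-housed CBP-ifKO 1 that median turned to 0.17, and without EE-housed CBP-ifKO 3 it was -0.55. Unadjusted, 0 IEGs had p under 0.05 in either genotype, against 4.21% of tested genes in controls and 8.59% in CBP-ifKOs, and in CBP-ifKOs DESeq2 called 54 genes and 0 IEGs. No IEG had housing groups without overlap (0 of 10), against 9.11% of tested genes in controls and 15.9% in CBP-ifKOs.

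**Figure D5:**
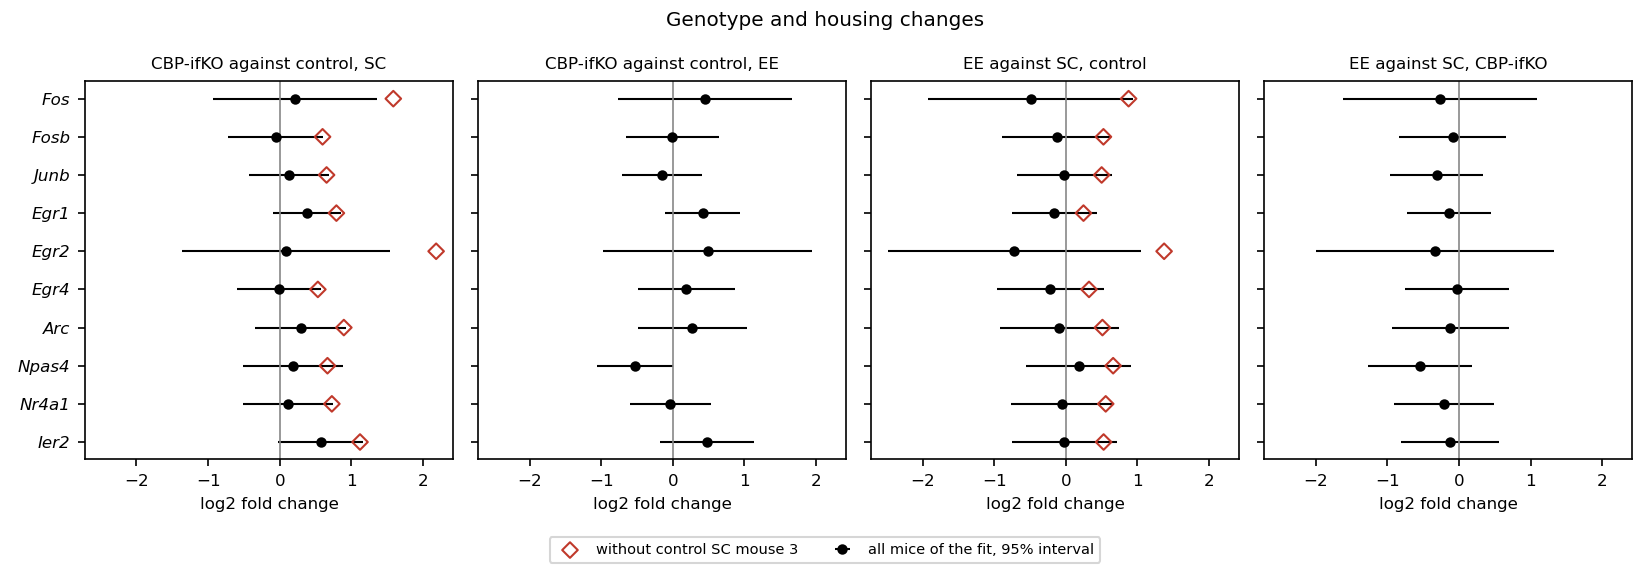
Log2 fold change of each IEG in 4 comparisons, with 95% intervals from edgeR (black), and the estimate without SC control mouse 3 (open red diamonds) in the 2 comparisons that use this group as reference. Every interval from all mice includes 0, and the diamonds lie above 0 for 10 of 10 genes in both comparisons.

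The remaining contrasts used all 12 mice. The interaction, which asks whether the housing change depended on genotype, passed for none of the 10 (edgeR, no adjusted p under 0.05) and for 0% of tested genes. Estimates ranged from -0.72 ± 0.48 for Npas4 to 0.39 ± 1.14 for Egr2, with a median of -0.00. Without SC control 3 all 10 estimates were negative, from -1.70 to -0.35 with a median of -0.71, 3 had an unadjusted p under 0.05, and 0 passed in edgeR. The share of all genes at this unadjusted threshold was not counted in that fit. Over the other single omissions the median lay between -0.43 (without EE-housed CBP-ifKO 3) and 0.30 (without EE-housed CBP-ifKO 1), with 0 passing. Averaged over housings, the genotype change passed for none of the 10 (adjusted p from 0.150 to 0.978 in edgeR), against 16.9% of tested genes. Ier2 alone had an unadjusted p under 0.05 (0.0426, edgeR), against 29.9% of tested genes, with a log2 change of 0.52 ± 0.24 and 5 of 6 CBP-ifKOs lay above the median of the controls. Without SC control 3, Egr1 and Ier2 passed (edgeR, adjusted p = 0.0289 and 0.0181), and without EE-housed CBP-ifKO 1 Ier2 passed (edgeR, adjusted p = 0.0367). Those fits called 2459 of 18647 and 2680 of 18570 genes, so both counts of IEGs are near the share of all genes. Averaged over genotypes, the housing change passed for none of the 10 (edgeR, adjusted p from 0.824 to 0.957), against 0.164% of tested genes. Unadjusted, 0 IEGs had p under 0.05 in the interaction (3.15% of tested genes) and in the averaged housing change (9.44%), and DESeq2 called 0 IEGs in these 3 contrasts and 0 genes for the interaction.

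Late response genes were tested in the same fits. The list includes Bdnf, Nptx2, Penk and Pdyn, which the paper reports as lower in CBP-ifKOs. Its screens included SC-housed mice of this experiment, so the counts below are not independent of that report. Of 17 tested late response genes, 11 fell in SC-housed CBP-ifKOs and 0 rose, while 4.02% of all tested genes fell, with a median log2 change of -0.36 against 0.00 for all genes. The smallest p-values belonged to Penk and Pdyn, opioid precursors, at -1.03 ± 0.09 and -1.42 ± 0.13 (edgeR, adjusted p = 9.93e-05 and 0.000127), and to Nptx2, a neuronal pentraxin, at -1.01 ± 0.12 (edgeR, adjusted p = 0.000635). In EE, 8 of 17 fell and 0 rose, while 3.53% of all tested genes fell, led by Pdyn at -1.46 ± 0.13, Nptx2 at -1.02 ± 0.12 and Penk at -0.72 ± 0.10. In the average over housings, 13 of 17 fell, against 10.3% of all tested genes. Their median pooled SD between mice was 0.157, against 0.576 for the 10 IEGs. Wide spread was not limited to IEGs, since blood markers had a median of 0.571, choroid plexus markers of 1.47 and other rapid response genes reached 0.905. Averaged over genotypes, 2 late response genes rose in EE, Nptx2 by 0.69 ± 0.09 and Penk by 0.45 ± 0.07 (edgeR, adjusted p = 0.00555 and 0.0149), and 0 fell, while 0.0603% of all tested genes rose.

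Cell type markers also differed between genotypes. In SC, 2 of 7 excitatory neuron markers fell in CBP-ifKOs, Wfs1 at -0.72 ± 0.12 and Grin2a at -0.33 ± 0.05 on the log2 scale. Sst, an interneuron peptide, fell as 1 of 7 inhibitory neuron markers, at -0.35 ± 0.08. Kdr, an endothelial receptor, fell as 1 of 6 markers, at -0.43 ± 0.09. Ttr fell as 1 of 5 tested choroid plexus markers, at -1.70 ± 0.12. Of all tested genes, 4.02% fell in SC and 3.53% in EE. In EE the called markers were Wfs1 at -0.999 ± 0.112, Grin2a at -0.33 ± 0.07 and Ppp1r1b, 1 of 8 in the striatum list, at -0.53 ± 0.12. Sst, Kdr and Ttr did not pass in EE (edgeR, adjusted p = 0.0873, 0.342 and 0.122). Summed endothelial markers were at 178 to 181 CPM in SC controls and 151 to 163 CPM in SC-housed CBP-ifKOs. Inhibitory neuron sums were at 880 to 954 CPM against 825 to 865 CPM, microglia sums at 263 to 267 CPM against 234 to 257 CPM and choroid plexus sums at 51.8 to 57.1 CPM against 38.5 to 42.2 CPM. Excitatory neuron sums overlapped, at 6228 to 6594 CPM and 6075 to 6506 CPM, as did astrocyte, oligodendrocyte, blood and striatum sums. In EE, astrocyte sums separated the genotypes, at 4112 to 4569 CPM in controls against 3732 to 3862 CPM in CBP-ifKOs. Inhibitory neuron sums (919.7 to 992.6 against 860.7 to 893.3 CPM) and microglia sums (242.9 to 271.6 against 227.5 to 234.3 CPM) did so too. The other cell type sums overlapped in EE. Among single tested genes, 25.4% did not overlap in SC and 24.8% in EE. The part of these marker differences in the fall of the late response genes was not tested.

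Of 36 other rapid response genes tested, 2 fell in SC-housed CBP-ifKOs and 2 in EE, Egr3 and Jun in each case, and 0 rose. These counts are near the shares of all tested genes that fell, 4.02% and 3.53%. Egr3, an Egr factor, had log2 changes of -0.41 ± 0.08 in SC and -0.40 ± 0.10 in EE. Jun, the AP-1 partner of Fos, had -0.35 ± 0.09 and -0.32 ± 0.05. Averaged over housings, 8 of 36 fell and 0 rose, against 10.3% of all tested genes that fell. Upstream regulators, which include CREB, Elk, MEF2 and kinase genes, had 4 of 23 members lower in SC and 5 in EE, Crebbp included. The others with the smallest p-values were Mef2d, at -0.35 ± 0.06 in SC and -0.42 ± 0.07 in EE, and Crtc1, a CREB coactivator, at -0.24 ± 0.06 and -0.42 ± 0.07. No list had a gene past the threshold for housing within a genotype or for the interaction.

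Genes outside the 10 that followed the IEGs from mouse to mouse were ranked by the mean Pearson r with the 10 genes, over the 12 mice with group means removed. Among 15035 genes of at least 1 CPM, Dusp6, a phosphatase that turns off ERK, came first with a mean r of 0.938. Then came Zfp874b (0.928), Btg2, an antiproliferative factor (0.924), 1700016P03Rik (0.905), Dusp1, a further MAP kinase phosphatase (0.898), Cwc25 (0.891), Rps13 (0.887), Nptx2 (0.886), Ccn1, a matrix protein (0.879), and Dhx33 (0.871). At the opposite end mean r reached -0.919 for Fam219b, -0.891 for AC133451.2 and -0.889 for Sass6, so values of nearly this size occurred in both directions over these 12 mice. Of the first 10 genes, 4 stand on the list of other rapid response genes, as do 10 of the first 30. Sizes differed. Ccn1 spanned 2.30 to 13.7 CPM, Btg2 13.3 to 51.5 CPM and Dusp1 11.4 to 38.8 CPM, each highest in SC control 3. Zfp874b, Cwc25 and Dhx33 varied only between 1.33-fold and 1.38-fold over the 12 mice. Rps13 belongs to a family with many processed copies, and its count is uncertain.

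By list, the median of this mean r was 0.564 over 36 other rapid response genes and 0.174 over 17 late response genes, against 0.001 over all ranked genes. Within the rapid list it reached from 0.938 for Dusp6 to -0.484 for Ier3. Sik1 (0.846) and Apold1 (0.843) were close to the IEGs, whereas Rgs2 (-0.070) and Ptgs2 (0.053) were not. Upstream regulators had a median of 0.104, with Crem, a CREB relative, highest at 0.773. Nptx2 was the late response gene most alike, and Bdnf reached 0.715.

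Cell composition was checked with marker lists, as summed CPM per mouse. Correlations of these sums with the mean IEG deviation, over 12 mice with group means removed, were 0.217 for 7 excitatory neuron markers and -0.180 for 7 inhibitory neuron markers. They were 0.035 for 6 astrocyte, -0.237 for 6 oligodendrocyte, -0.161 for 6 microglia and -0.242 for 6 endothelial markers. For 7 choroid plexus markers r was -0.344, for 5 blood markers 0.099 and for 8 striatum and thalamus markers -0.472. The excitatory sum varied 1.19-fold over the mice, from 5718 to 6800 CPM, and the blood sum 3.52-fold. Library total (r = -0.312), TMM factor (r = -0.113), mitochondrial share (r = -0.042) and the share of the top 10 genes (r = -0.047) were compared likewise. Spearman's rho for these measures lay between -0.434 and 0.315. The part of composition in the IEG pattern was not tested.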

How the data were processed

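Hippocampal RNA of 12 mice was sequenced as 50 bp single-end reads, in 2 runs per mouse. The authors trimmed reads with Trim Galore 0.6.4, aligned them with STAR 2.6.1 to mm10 (GRCm38), kept reads with mapping quality above 10, merged the runs and counted reads on exons. The deposited table gives unnormalized counts for each gene together with its length. Groups came from the sample titles, and the runs of a mouse were 1 replicate.

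Differential expression was tested on the deposited counts (edgeR 4.0.16, R 4.3.3; filterByExpr, TMM, quasi-likelihood F test, Benjamini-Hochberg over all genes tested, threshold 0.05). Genotypes were compared within the 6 mice of a housing, and other contrasts within all 12 mice with 1 coefficient per group. Correlations and SDs used log2 CPM with a prior count of 2. Scripts were tested on simulated data. Alternatives were DESeq2 1.42.0, other normalization and filters, a replicate block, halved CBP-ifKO counts and omission of each mouse. The 10 genes and the lists were chosen with earlier results of these data known. Named genes were the 10 IEGs, Crebbp, the 3 called genes with the smallest p in each of the rapid, late and upstream lists and the 10 genes most alike. Genes named beyond that rule (Sik1, Apold1, Rgs2, Ptgs2, Ier3, Crem, Bdnf, the cell type markers and the genes least alike) were chosen after their values were seen. Intervals and counting errors cover these libraries only. The positions and exon overlaps were taken from GENCODE M21 (GRCm38), and promoter sequences from RefSeq GRCm38.p6.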

Additional observations from a re-analysis of the deposited data

How the results depend on the processing

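Of 118 counts of IEGs passing the test under an alternative, 107 stayed at 0. Without the filter on low counts, edgeR called 2 IEGs for genotype in SC, 3 for genotype in EE, 2 for housing in controls, 2 for housing in CBP-ifKOs, 1 for the interaction, 4 for the averaged genotype change and 2 for the averaged housing change. The genes called in these fits were, in the same order, 1512 of 32372, 1677 of 32641, and 145, 247, 110, 3365 and 334 of 35081. The prior degrees of freedom, which set how far a gene's own spread gives way to the trend, were then 73 in SC and 639 in EE against 7.79 and 7.21 with the filter, and had no finite value in the fit of 12 mice. Omitting single mice gave between 0 and 7 IEGs for genotype in SC, between 0 and 2 for the averaged genotype change and 0 elsewhere. SC control 3 gave the 7 and the 2. DESeq2, other size factors, a filter of 1 CPM in 3 mice, halved CBP-ifKO counts and other sets of mice in the fit called 0 IEGs in every comparison for which they were run.

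Same-numbered mice of the groups compared correlated between -0.047 and 0.305 over genes and differently numbered ones between -0.251 and 0.144. In EE each mouse correlated best with its own number in the other genotype (0.114, 0.124 and 0.034), which did not hold in every comparison, and the labels give no meaning to the numbers, so they were not used to pair mice. With a replicate block 1 IEG was called for genotype in EE (Npas4, log2 change -0.57, edgeR adjusted p = 0.0213; 1089 of 17625 genes were called), and 0 in the other 6 comparisons. The median r of the 45 pairs was between 0.902 and 0.965 with another scaling, prior count, measure or genotype subset or 1 mouse omitted, and 0.887 without the 2 farthest mice. The median pooled SD was 0.643 in the 6 control mice and 0.501 in the 6 CBP-ifKOs, and between 0.458 (without SC control 3) and 0.615 with a mouse omitted. Estimates of IEGs that were not called changed sign in 128 of 1180 cases, 116 of them with a mouse omitted. The 3 mice per group limit each comparison, and counts of 19 to 60 reads limit Egr2 in low mice. The causes of these changes were not tested.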
